A study of Mus musculus with 42 samples.

Results

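Collagens and laminins are the protein families that give the extracellular matrix its scaffold, and 38 of their genes were measured here in mouse embryonic stem cells. They were taken as every row whose gene symbol is Col with a type and a chain number, or Lama, Lamb or Lamc with a number, with no use of measured values. The 38 genes, 29 collagens and 9 laminins, stood among 20071 genes in either count table. All 38 were in the table of experiment 2 (of 19866 rows) and 35 in that of experiment 1 (of 18825 rows), which lacked Col15a1, Col23a1 and Col25a1. RefSeq names 55 mouse genes of this form, and the 17 in neither table, among them Col1a2, Col3a1, Col4a3 and Lama2, are not analysed here.

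The study recovered RNA with anti-HA beads from lysates of cells whose Tnrc6a protein carries an HA-AVI tag (the IP), and sequenced it beside RNA of the lysate itself (the input). Tnrc6a belongs to the GW182 family and acts downstream of Argonautes such as Ago2, which bring it to mRNAs that a microRNA pairs with. Trim71 binds RNA and is made in stem and germ cells. The question was which RNAs associate with Tnrc6a and whether Trim71 or Ago2 is needed for it. The 42 libraries fall into 14 groups of 3 in 2 experiments.

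All cells were 129S6/SvEvTac embryonic stem cells with the GFP_5xT71BS reporter and a stably transfected FLAG-Cas9::T2A::Blasticidin construct, so the controls carried both as well. Untagged cells had nothing further, tagged cells had HA-AVI-Tnrc6a, and the groups labelled Trim71KO and Ago2KO were tagged cells that were Trim71-/- or Ago2-/-. Experiment 1 held input and IP of untagged, tagged and Trim71KO cells, and experiment 2 held the same and Ago2KO cells. Cells were grown on gelatin with serum and LIF in triplicate dishes. How many clones stand behind a line is not stated, so a difference between genotypes cannot be told apart from one between clones, and p-values measure the spread between dishes.

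The labels and the cell type were checked on RNA first. Ago2 input RNA fell from 353 ± 34.9 to 162 ± 4.76 CPM (counts scaled to a common library size, mean ± SD, n = 3 throughout) in Ago2KO cells, a log2 change of -1.12 (SE 0.10, edgeR adjusted p 2.52e-08). Trim71 RNA was not lower in libraries labelled Trim71KO, at 241 ± 21.2 in tagged against 282 ± 3.18 CPM in experiment 1 and 282 ± 23.5 against 377 ± 9.61 in experiment 2. RNA therefore does not check that label, and every direction for those cells below is one in the libraries labelled Trim71KO. Tnrc6a mRNA itself had a tag-specific enrichment of 8.34 and 7.90 on the log2 scale. Pluripotency markers summed to 7363 to 9005 CPM in the input libraries of experiment 1 and 8449 to 10214 in those of experiment 2. Libraries held 12587257 to 23657840 and 16296447 to 21026552 counts, of which the collagen and laminin genes took 0.114% to 0.178% of input in experiment 1 and 0.0993% to 0.127% in experiment 2. Tagged input replicates 1 and 2 of experiment 1 stood apart: their median absolute log2 distances from the other libraries of the group were 0.181 and 0.198, against 0.0601 to 0.112 in the other inputs of both experiments. Of 16 well-measured collagen and laminin genes, 14 were lower in replicate 2 (median -0.29) and 3 in replicate 1 (median 0.22). Results that either of these tagged inputs changes are given below without it as well. IP libraries spread too: Trim71KO IP replicates 1 and 3 of experiment 1 lay at 0.238 and 0.209. In untagged IP of experiment 1, 15 of the 16 genes were lower in replicate 1 (median -0.36) and 1 in replicate 2 (median 0.42). Trim71KO IP replicate 3 of experiment 2 had a median of 0.38.

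Laminins are cross-shaped trimers of an alpha, a beta and a gamma chain, and collagens are triple helices of alpha chains. Laminin-111 (Lama1, Lamb1, Lamc1) and the collagen IV chains Col4a1 and Col4a2 build the first basement membrane of the mouse embryo, which is laid down in large amounts by the primitive endoderm and its parietal descendants. Embryonic stem cells themselves make laminin and collagen IV chains. Fibrillar collagens (types I, II, III, V, XI and others) form the fibrils of connective tissue and are made chiefly by mesenchymal cells.

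Col4a1 and Col4a2 are transcribed away from each other from a shared control region. Because both genes fell in Trim71KO input of experiment 1 and in Ago2KO input (values below), their start regions are shown, read from RefSeq on GRCm38.p6 as 250 bases before to 50 after the start, 5′ to 3′ along each gene. Col4a1 lies at chr8:11312777-11313076 on the minus strand and Col4a2 at chr8:11312555-11312854 on the plus strand. Capitals mark the matches, on either strand, to CCAAT (the CCAAT box, which reads ATTGG in reverse), to the GC box GGGCGG, which in reverse is read as CCGCCC, and to the CTC box, that is CCCTCCC or, on the other strand, GGGAGGG.
Col4a1: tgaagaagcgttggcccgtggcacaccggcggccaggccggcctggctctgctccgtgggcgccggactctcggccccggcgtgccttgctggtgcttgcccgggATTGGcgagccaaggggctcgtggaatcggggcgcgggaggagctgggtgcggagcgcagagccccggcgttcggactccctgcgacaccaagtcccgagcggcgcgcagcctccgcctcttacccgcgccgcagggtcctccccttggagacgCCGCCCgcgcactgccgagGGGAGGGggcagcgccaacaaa
Col4a2: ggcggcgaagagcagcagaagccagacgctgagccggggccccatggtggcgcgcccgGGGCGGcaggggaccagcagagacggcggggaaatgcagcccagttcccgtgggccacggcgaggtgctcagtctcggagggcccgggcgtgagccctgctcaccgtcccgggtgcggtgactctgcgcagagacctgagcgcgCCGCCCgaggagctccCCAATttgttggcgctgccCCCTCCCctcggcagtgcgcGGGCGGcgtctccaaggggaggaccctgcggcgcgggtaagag

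The windows share 78 bases, from 11312777 to 11312854 on chromosome 8, read on opposite strands. The starts used for the windows lie 21 bases apart. G and C made up 74% of the Col4a1 window and 73.7% of the Col4a2 window, against a median of 52.7% over 32851 such windows. CCAAT occurred 1 time in each, at different sites, and in 37.4% of all windows. GGGCGG occurred 1 time in the Col4a1 and 3 times in the Col4a2 window, and in 35.7% of all windows. The Col4a1 match is the same site as 1 of the Col4a2 matches, in the shared bases. CCCTCCC, a single match that lies in the shared bases, occurs in 22% of windows, and TATAAA, found in 13.6%, was in neither. These are matches of letters and not measured binding sites.

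Lamc1, the gamma chain of most laminins, had the highest level per length in tagged input, at 56.4 ± 17.2 CPM per kilobase in experiment 1 and 40.6 ± 5.9 in experiment 2. Col18a1, whose collagen XVIII carries heparan sulfate in basement membranes, came next at 35.5 ± 3.6 and 23.3 ± 2.08. Of the other chains of the early basement membrane, Col4a1 stood at 15.7 ± 2.06, Lamb1 at 10.8 ± 1.34 and Lama1 at 10.1 ± 3.22 CPM per kilobase in experiment 1. Lamb1 and Lama1 lay within each other's spread there. In experiment 2 they stood at 7.94 for Col4a1, 6.94 for Lamb1 and 5.38 for Lama1. Lowest were Col4a5 in experiment 1, at 0.0557 ± 0.028, and Col25a1 in experiment 2, at 0.0317 ± 0.016. No gene of the family was at the floor of 3 counts per library in any group.

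**Figure D1:**
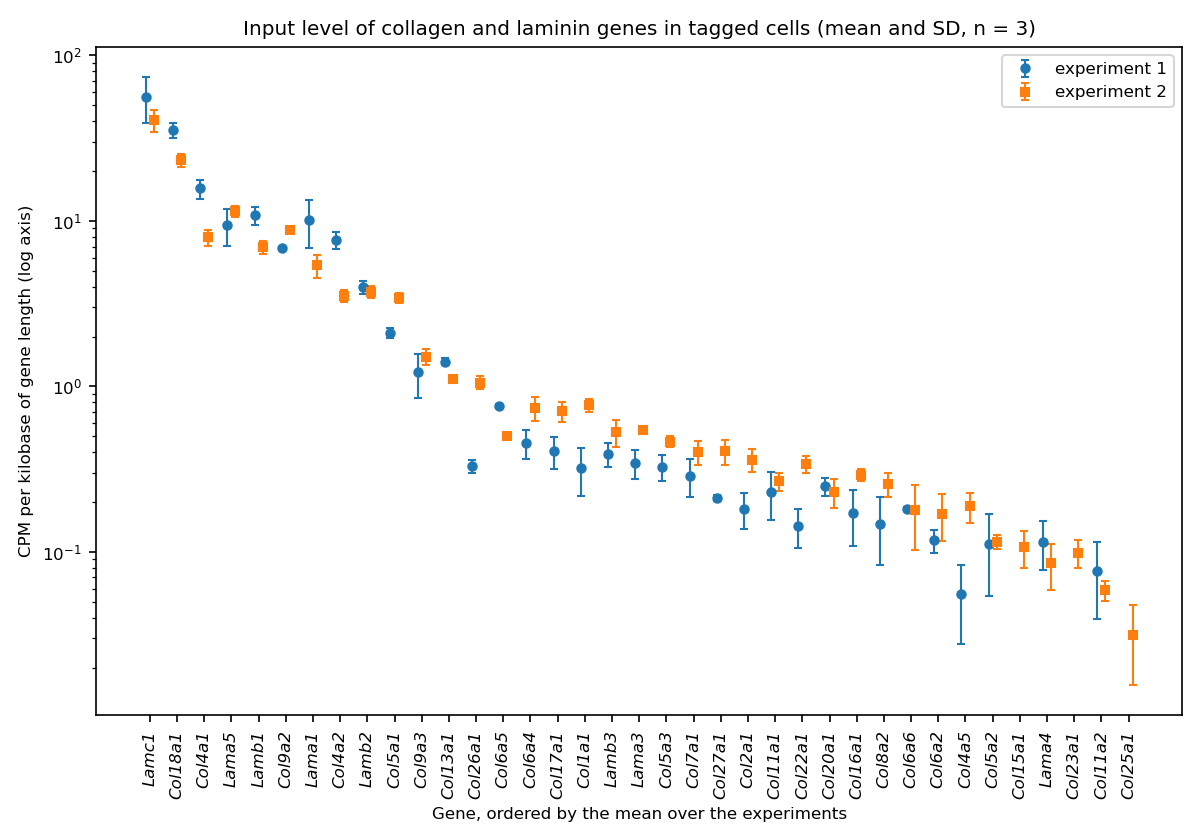
Level of 37 of the 38 collagen and laminin genes in tagged input (CPM per kilobase of gene length, log axis), in both experiments, as mean with SD over 3 libraries. Lamc1 and Col18a1 lead in both experiments, and Col4a5, Col11a2, Lama4 and Col25a1 are among the lowest.

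In the input of libraries labelled Trim71KO, collagen and laminin genes differed from tagged input in both directions: Col18a1 rose, and Col4a2, Lamb1 and Lama3 fell, in both experiments. In experiment 1, 19 of 35 were called (edgeR quasi-likelihood test, adjusted p under 0.05 after Benjamini-Hochberg correction across the table), 12 higher and 7 lower, beside calls for 34% of the 18772 genes tested (16.5% up, 17.4% down). In experiment 2, 18 of 38 were called, 6 higher and 12 lower, beside calls for 27.2% of 19778 genes (13.5% up, 13.7% down). With library size in place of TMM scaling the latter became 2 higher and 14 lower, and the share of rises among all calls of experiment 2 went from 49.6% to 34.6%. The median log2 change over these genes was 0.25 against -0.01 over all genes in experiment 1, and -0.29 against -0.01 in experiment 2. Without tagged input replicate 2, 16 genes were called in experiment 1, and 20 without replicate 1. Each fit of experiment 2 that omitted a library gave fewer calls, 11 to 15, with 11 without Trim71KO input replicate 1. The experiments called 11 genes in common, 57.9% of the calls of experiment 1 and 61.1% of those of experiment 2, and all 11 moved in the same direction. Lama5, Lamb2 and Col11a1 also rose in both, and Col26a1, Col13a1 and Col6a5 fell in both. With libraries left out singly, the experiment 2 calls of Lama5 and Col11a1 were each lost in 5 of 6 fits and that of Lamb2 in 2 of 6. The experiment 1 calls of Col26a1 and Col13a1 were each lost in 3 of 6.

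**Figure D2:**
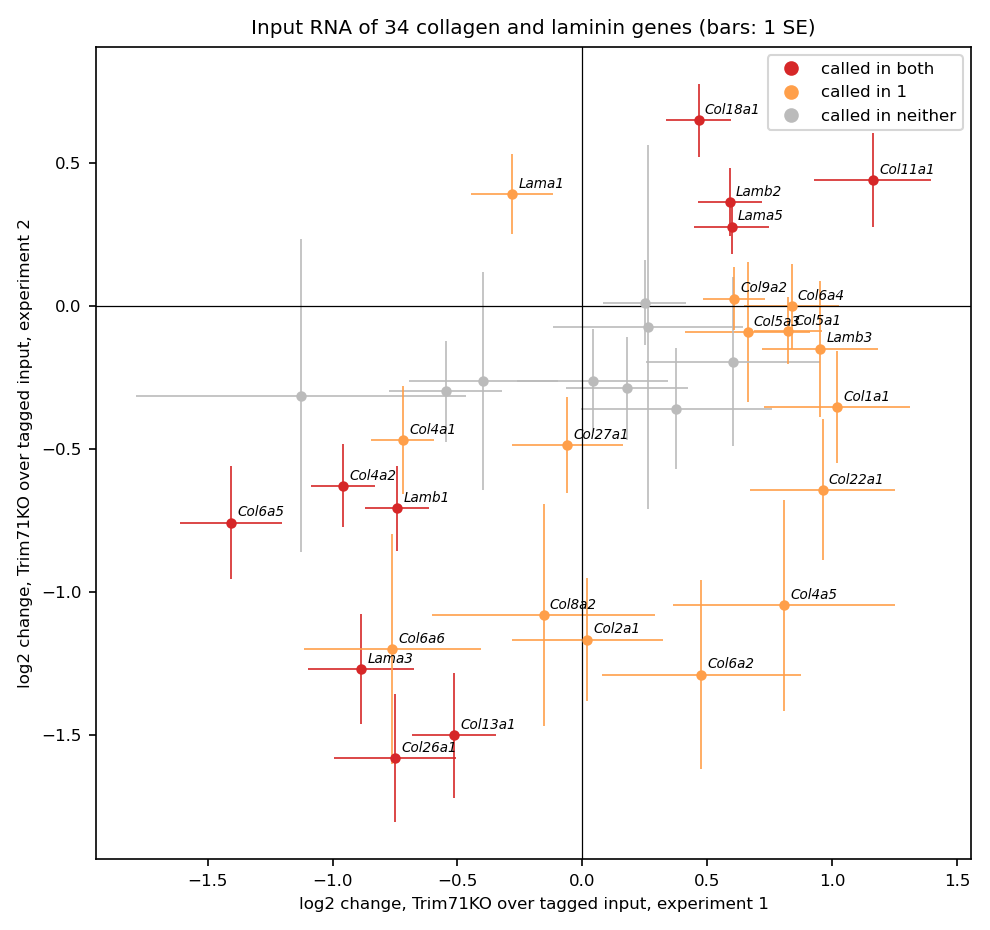
Log2 change in input of libraries labelled Trim71KO over tagged input, experiment 1 on the horizontal and experiment 2 on the vertical axis, with SE bars, coloured by whether the gene was called in both experiments, in 1 or in neither. Of the 34 genes drawn (of 35), Col18a1 (0.47 and 0.65) and Lamb1 (-0.74 and -0.71) sit near the diagonal, while Col5a1, Col1a1 and Col4a5 do not.

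Col4a2 fell in both experiments and Col4a1 in experiment 1. Col4a2 stood at 56.4, 44.8 and 51.1 CPM in the 3 tagged inputs of experiment 1 and at 24.9, 24.8 and 28.6 CPM in Trim71KO. In experiment 2 it stood at 21.9, 22.4 and 25.4 CPM in tagged and at 13.5, 15.3 and 16.3 in Trim71KO. No Trim71KO library reached a tagged one in either experiment. The log2 changes were -0.96 (SE 0.13, edgeR adjusted p 5.64e-06) and -0.63 (SE 0.14, edgeR adjusted p 0.00169). Col4a1 stood at 132, 101 and 119 CPM in tagged input of experiment 1 and at 73.3, 71.6 and 68.7 in Trim71KO (-0.72, SE 0.13, edgeR adjusted p 0.000129). In experiment 2 it was 56.1, 55.1 and 66.7 CPM against 39.3, 42.8 and 46.5. The groups were again separate, but the change of -0.47 (SE 0.19) did not pass the threshold (edgeR adjusted p 0.0644). With the replicate number as a block it did (edgeR adjusted p 0.0294). By the correlation rule given under processing, the numbers pair these dishes in experiment 2. The block also tied untagged and Ago2KO dishes, which did not meet that rule. Of the minor chains of type IV only Col4a5 was in the tables, and it fell in experiment 2 (-1.05, SE 0.37, edgeR adjusted p 0.0357), a call that 4 of 6 leave-one-out refits did not keep. In experiment 1 its estimate was 0.81 (SE 0.45, edgeR adjusted p 0.167).

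Of laminin-111, Lamb1 fell in both experiments, Lamc1 passed in neither, and Lama1 passed in experiment 2. Lamb1, the beta chain, stood at 119, 92.4 and 110 CPM in tagged and 63.1, 62.4 and 66.3 in Trim71KO input of experiment 1, and at 70, 62.4 and 74 against 44.4, 41.4 and 40.6 CPM in experiment 2. It was lower in every Trim71KO library, by -0.74 (SE 0.13, edgeR adjusted p 9.27e-05) and -0.71 (SE 0.15, edgeR adjusted p 0.000665). Lamc1, the gamma chain and the family's highest mRNA per length, stood at 601, 317 and 483 CPM in tagged and 570, 534 and 561 in Trim71KO input of experiment 1. The tagged libraries spread widely, and their range enclosed those of Trim71KO. In experiment 2 Lamc1 stood at 363, 279 and 364 against 345, 312 and 358 CPM, and it was called in neither experiment (0.25 with SE 0.17 and 0.01, edgeR adjusted p 0.257 for the former). Without tagged replicate 1 of experiment 1 it passed there (0.46, edgeR adjusted p 0.0286). Lama1, the alpha chain, stood at 125, 64 and 105 CPM in tagged and 78.2, 79.5 and 84 in Trim71KO input of experiment 1 (-0.28, SE 0.16, edgeR adjusted p 0.192). The groups overlapped there through tagged replicate 2, without which Lama1 was called lower (-0.50, edgeR adjusted p 0.00515). In experiment 2, with 56.7, 42.4 and 57.2 against 65.4, 67.3 and 72.6 CPM, it was called higher (0.39, SE 0.14, edgeR adjusted p 0.0387). That call was lost with library size alone (0.33, edgeR adjusted p 0.0973) and on leaving out 4 of the 6 libraries singly.

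Of the other laminin chains, Lama3 fell in both experiments. Lama3 is an alpha chain of the laminin of skin and epithelial basement membranes. It stood at 4.31, 2.87 and 3.87 CPM in tagged and 2.09, 2.03 and 1.86 in Trim71KO input of experiment 1 (-0.89, SE 0.21, edgeR adjusted p 0.00253). In experiment 2 it stood at 6.02, 5.82 and 5.71 against 2.51, 1.42 and 3.3 CPM (-1.27, SE 0.19, edgeR adjusted p 1.34e-05). The groups did not overlap in either experiment. Lamb3, the beta chain of the same laminin, was called in experiment 1 alone (0.95, SE 0.23, edgeR adjusted p 0.00286, against -0.15 in experiment 2). Lama5 and Lamb2, chains of laminins made widely after the early embryo, rose by 0.60 and 0.59 in experiment 1 and by 0.28 and 0.37 in experiment 2. Both calls of experiment 2 were lost with library size alone, where the values were 0.21 and 0.30 (edgeR adjusted p 0.139 and 0.0879).

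**Figure D3:**
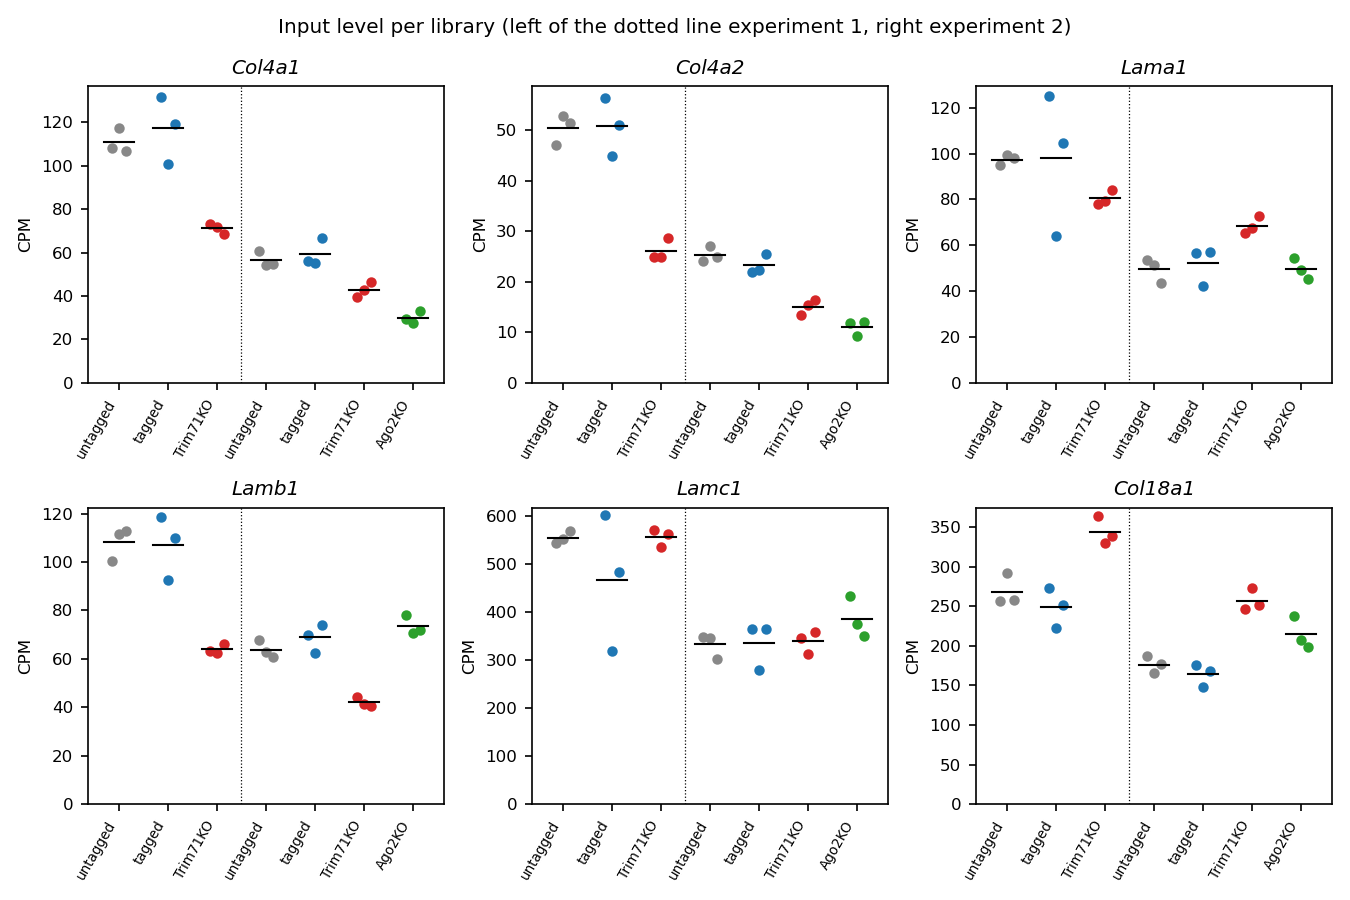
Input level in CPM of Col4a1, Col4a2, Lama1, Lamb1, Lamc1 and Col18a1 in every library of untagged, tagged, Trim71KO and Ago2KO cells of both experiments, with points as libraries and lines as group means. Col4a2 and Lamb1 are lower and Col18a1 higher in all Trim71KO libraries than in tagged ones, and tagged replicate 2 of experiment 1 lies below its group for Lamc1 and Lama1.

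Of 8 fibrillar collagens tested, 4 rose and 0 fell in experiment 1, and 1 rose and 2 fell in experiment 2, against 16.5% up and 17.4% down, and 13.5% and 13.7%, over all genes. Those of experiment 1 were Col11a1 (1.16, SE 0.23), Col1a1 (1.02, SE 0.29), Col5a1 (0.82, SE 0.14) and Col5a3 (0.66, SE 0.25), with edgeR adjusted p of 0.000525, 0.00933, 6.56e-05 and 0.0436. Without tagged input replicate 2, Col1a1 (0.78, edgeR adjusted p 0.0593) and Col5a3 (0.66, edgeR adjusted p 0.0985) were no longer called, and Col5a3 was not without replicate 1 either (0.53, edgeR adjusted p 0.142). In experiment 2, Col11a1 rose (0.44, SE 0.16, edgeR adjusted p 0.0466) and Col2a1 (-1.17, SE 0.21) and Col27a1 (-0.49, SE 0.17) fell, with edgeR adjusted p of 0.000159 and 0.0323. The Col27a1 call was lost on leaving out 4 of the 6 libraries singly. The Col11a1 call of experiment 2 was lost with the replicate block (edgeR adjusted p 0.0622) and with library size alone (0.37, edgeR adjusted p 0.0993). Col5a1, a chain that starts collagen fibrils, stood at 19.6, 17.4 and 17.2 CPM in tagged and 30.9, 32.6 and 32.3 in Trim71KO input of experiment 1. In experiment 2 it stood at 30.2, 26.8 and 31 against 25.6, 27.8 and 29.5 CPM. The groups were well separated in the first and overlapped in the second, and the difference between the experiments was itself called (0.92, SE 0.18, edgeR adjusted p 0.000369).

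Among the other collagens, Col6a5 and Col13a1 fell in both experiments and Col18a1 rose in both. Col6a5, a chain of the beaded-filament type VI family, stood at 6.95, 7.4 and 7.19 CPM in tagged and 3.13, 2.11 and 2.92 in Trim71KO input of experiment 1 (-1.41, SE 0.20, edgeR adjusted p 1.34e-05). It fell by 0.76 in experiment 2 (SE 0.20, edgeR adjusted p 0.00539). Its neighbours on chromosome 9, Col6a4 and Col6a6, lie 27855 and 27824 bases away. Col6a4 rose in experiment 1 (0.84, SE 0.19, edgeR adjusted p 0.00165) and stood at -0.00 in experiment 2. Col6a6 had an estimate of -0.76 in experiment 1 (edgeR adjusted p 0.0996) and was called lower in experiment 2 (-1.20, SE 0.40, edgeR adjusted p 0.0273). Col13a1, a membrane-spanning collagen, stood at 5.03, 5.34 and 5.27 CPM in tagged and 1.38, 2.43 and 1.73 in Trim71KO input of experiment 2 (-1.50, SE 0.22, edgeR adjusted p 7.49e-06), and it changed less in experiment 1 (-0.51, SE 0.17, edgeR adjusted p 0.0218), where the call was lost without tagged replicate 2 (edgeR adjusted p 0.0741). Col18a1 stood at 273, 223 and 251 CPM in tagged and 364, 330 and 338 in Trim71KO input of experiment 1, and at 176, 148 and 168 against 246, 273 and 252 CPM in experiment 2. Every Trim71KO library was above every tagged one, by 0.47 (SE 0.13, edgeR adjusted p 0.00782) and 0.65 (SE 0.13, edgeR adjusted p 0.000355). Col9a2 and Col22a1 were called higher in experiment 1 alone (0.61 and 0.96), and Col6a2 and Col8a2 were called lower in experiment 2 alone (-1.29 and -1.08), the Col8a2 call being lost in 5 of 6 leave-one-out refits. Col5a2, Col7a1, Col11a2 and Col20a1 were called in none of the 16 comparisons made, input or IP, and Col15a1, Col23a1 and Col25a1 in none of those of experiment 2, where alone they were tested.

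Both experiments fitted together gave 11 of 35 genes whose Trim71KO input change differed between them, where 22.8% of 18620 genes were called. Their values are in the closing section. The input of tagged cells was also set against that of untagged cells. The difference between the experiments was called for 2.89% of genes and, with edgeR, for 0 of 35 here (7 at an unadjusted p under 0.05, and 1 with DESeq2). Only Lama5 was called in experiment 1 (-0.56, SE 0.15, edgeR adjusted p 0.0184, where 10.6% of genes were called), and not without tagged replicate 2 (-0.36, edgeR adjusted p 0.137). Only Col5a1 was called in experiment 2 (0.50, SE 0.12, edgeR adjusted p 0.0281, where 1.39% of genes were called), a call that 5 of 6 leave-one-out refits did not keep. Library size alone moved the share of rises among all calls from 53.9% to 35.3% in experiment 1. Over all genes the 1983 calls of experiment 1 became 722 without tagged replicate 2 and 3053 without replicate 1, and the 275 of experiment 2 became 154 without untagged replicate 2. The 539 between the experiments became 203 without tagged replicate 2 and 1337 without replicate 1 of experiment 1.

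Markers of other cell types changed in some of these inputs and not in others. In bulk RNA, fewer cells of a type cannot be told apart from less RNA per cell. Primitive endoderm markers summed to 76.7 to 99.9 CPM in tagged and to 17.3 to 20.7 in Trim71KO input of experiment 1. There 9 of 12 fell, beside 17.4% of all genes, Gata6 by 4.66, Cubn by 3.60 and Foxa2 by 3.56 on the log2 scale. In experiment 2 they summed to 29.5 to 32.9 CPM in tagged, 12.9 to 15.3 in Trim71KO and 16.1 to 18.4 in Ago2KO input. In the 2 knockouts 7 and 5 of 11 were called lower, beside 13.7% and 2.57% of all genes. None of the measured markers was at 0 in all libraries of a group. Col4a1, Col4a2 and Lamb1 fell in the same Trim71KO libraries of experiment 1 as these markers. In Ago2KO input, where the markers also summed lower, Col4a1 and Col4a2 fell and Lamb1 was not called. Parietal endoderm markers, of which Sparc is also a basement membrane partner below, summed to 210.5 to 239.4 CPM in tagged and 223.8 to 247.0 in Trim71KO input of experiment 1, and to 138.7 to 160.9, 165.3 to 174.1 (Trim71KO) and 149.8 to 171.6 (Ago2KO) in experiment 2. Fibroblast markers, of which 4 of 10 were in the tables, summed to 45.3 to 47.2 CPM in tagged and 85.0 to 94.3 in Trim71KO input of experiment 1, where fibrillar collagens rose, and to 72.1 to 80.5 against 72.8 to 81.0 in experiment 2. Of the 4, Thy1 and Mmp2 were called higher in experiment 1. The markers Dcn, Lum, Postn, Prrx1, Twist2 and Fap were in neither table, so the sum does not establish the presence of fibroblasts. Trophectoderm markers (4 of 7 in the tables) summed to 44.4 to 48.9 CPM in tagged and 51.6 to 57.7 in Trim71KO input of experiment 1, and to 87.9 to 99.7, 71.7 to 79.5 and 124.9 to 143.4 in tagged, Trim71KO and Ago2KO input of experiment 2. Neural markers (3 of 6) summed to 17.2 to 20.4 against 12.1 to 14.6 CPM in experiment 1, and to 21.4 to 23.7, 12.3 to 17.0 and 24.3 to 26.8 in experiment 2. The part of these cell types in the collagen and laminin changes was not tested.

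In the input of Ago2KO cells both collagen IV genes fell, and Col11a1 and Col9a2 rose. Of 38 genes 6 were called, 3 higher and 3 lower, beside calls for 6.96% of genes (4.38% up, 2.57% down). Over all genes the 1376 calls became 774 without tagged replicate 2. Rises made up 63.0% of all calls, and 51.1% with library size alone. The tagged libraries are those of the Trim71KO comparison of experiment 2, so the values are set side by side without a measure of likeness. Col4a1 stood at 29.4, 27.7 and 32.9 CPM and Col4a2 at 11.9, 9.24 and 12 CPM in Ago2KO input, below every tagged and every Trim71KO library of the experiment. The changes against tagged input were -0.98 (SE 0.19, edgeR adjusted p 0.00152) and -1.08 (SE 0.15, edgeR adjusted p 2.46e-05). Col11a1, at 6.68, 5.93 and 6.33 CPM against 3.8, 2.99 and 3.39 in tagged input, rose by 0.89 (SE 0.16, edgeR adjusted p 0.000585). Col9a2 rose by 0.52 (SE 0.11, edgeR adjusted p 0.00269) and Col6a4 fell by 0.62 (SE 0.16, edgeR adjusted p 0.0145), the latter a call that 3 of 6 leave-one-out refits did not keep. Col18a1 missed the threshold with edgeR (0.39, SE 0.13, adjusted p 0.0657) and passed it with DESeq2 (0.39, adjusted p 0.0373). Lamb1 stood at 78, 70.6 and 72.1 CPM (0.09), Lama1 at 54.4, 49.3 and 45.2 (-0.07) and Lamc1 at 433, 374 and 349 (0.20). These values overlapped those of tagged input, and no laminin-111 chain was called.

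Set directly against Ago2KO input, Trim71KO input differed in 15 of 38 genes, where 28.4% of genes were called. Lama3 (-1.57, SE 0.19, edgeR adjusted p 4.31e-07) was lower in Trim71KO, and Col13a1 (-1.38), Col2a1 (-1.24), Col26a1 (-1.09), Col6a5 (-1.0), Lamb1 (-0.80), Col27a1 (-0.58), Col9a2 (-0.50) and Col11a1 (-0.45) were too. Col6a4 (0.62), Col4a1 (0.52), Lama1 (0.46), Col4a2 (0.45), Lama5 (0.39) and Lamb2 (0.34) were higher in Trim71KO. The Col4a1 difference (SE 0.19, edgeR adjusted p 0.047) was lost with DESeq2 (0.54, adjusted p 0.0746), with library size alone (0.48, edgeR adjusted p 0.0691) and on leaving out 5 of the 6 libraries singly. That of Col4a2 was lost in 3 of 6, and that of Lamb2 in 3 of 6 and with library size alone (0.31, edgeR adjusted p 0.0741). That of Col11a1 was lost with DESeq2 (-0.43, adjusted p 0.0515) and in 5 of 6.

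**Figure D4:**
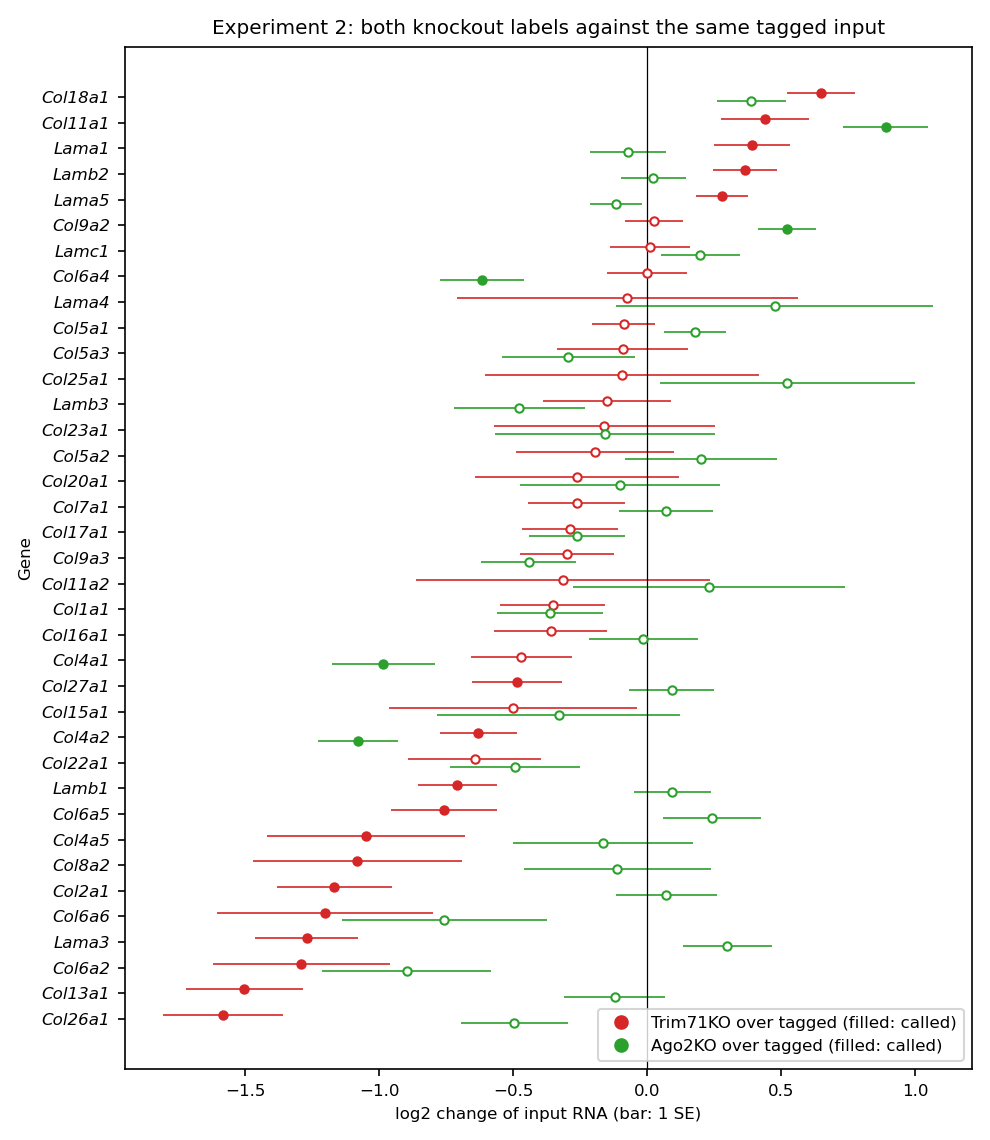
Log2 change in input of Trim71KO and of Ago2KO cells over the same tagged libraries of experiment 2, for 37 of the 38 collagen and laminin genes, with filled points where the gene was called. Col4a1 and Col4a2 lie below 0 in both, while Lama3, Col13a1, Col2a1 and Lamb1 are called lower in Trim71KO and not in Ago2KO.

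The IP addresses which of these mRNAs come down with Tnrc6a. Tag-specific enrichment is the log2 IP/input ratio of tagged cells minus that of untagged cells. Only Col17a1, Col26a1 and Lama3 had any called rise, and most laminin mRNAs were called lower in experiment 1. There 16 of 35 genes were called, 2 higher and 14 lower, beside calls for 56.9% of genes (28.1% up, 28.8% down). The median was -0.55 against -0.10 over all genes. Experiment 2 gave 5 calls of 38, 3 of them up and 2 down, beside calls for 27.7% of genes (18.9% up, 8.77% down), and the median was -0.23 against -0.03. Without tagged input replicate 2, 13 genes were called in experiment 1, and 13 without replicate 1. In experiment 2 library size alone gave 11 calls, 3 higher and 8 lower, and moved the share of rises among all calls from 68.4% to 36.5% and the median of all genes from -0.03 to -0.24. A replicate block by culture, whose numbers pair tagged input with tagged IP but not the untagged libraries, gave 8 calls there, adding Col18a1 (-0.45, edgeR adjusted p 0.0330), Lamb1 (-0.56, edgeR adjusted p 0.0192) and Col9a2 (-0.35, edgeR adjusted p 0.0349). The experiments shared 3 calls in the same direction, Col17a1, Col26a1 and Lamb2, and the Lama4 and Col17a1 values differed between them, as did that of Col6a4. For this difference 28.5% of genes were called.

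Col17a1, a membrane collagen of epithelial hemidesmosomes at chr19:47646341-47692042 (GRCm38.p6), was recovered with the tag. In experiment 1 it stood at 2.15, 2.12 and 3.06 CPM in tagged input and 19.7, 15.4 and 19 in tagged IP, against 2.85, 2.22 and 2.6 in untagged input and 1.92, 2.47 and 4.22 in untagged IP. The values of experiment 2 were 3.65, 4.86 and 4.26 in tagged input, 16.2, 12.4 and 9.96 in tagged IP, 3.18, 3.14 and 3.99 in untagged input and 4.07, 4.04 and 3.12 in untagged IP. Every tagged IP library was above all inputs and above every untagged IP library. The enrichment was 2.7 (SE 0.33, edgeR adjusted p 2.04e-07) and 1.47 (SE 0.25, edgeR adjusted p 3.09e-05), and larger in experiment 1 by 1.33 (SE 0.42, edgeR adjusted p 0.0162).

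Col26a1, a little-studied short collagen at chr5:136741759-136883376, was recovered with the tag as well. It stood at 2.83, 2.81 and 2.42 CPM in tagged input and 20.3, 15.5 and 17.8 in tagged IP of experiment 1, against 2.74, 1.94 and 1.65 in untagged input and 1.33, 2.54 and 1.81 in untagged IP. The values of experiment 2 were 8.88, 7.74 and 9.24 in tagged input and 38.8, 29.5 and 29.1 in tagged IP, against 5.5, 6.12 and 4.14 and 4.87, 6.14 and 5.17 in untagged input and IP. Tagged IP libraries again lay above all others. The enrichment was 2.90 (SE 0.32, edgeR adjusted p 5.03e-08) and 1.86 (SE 0.28, edgeR adjusted p 7.8e-06). Unlike that of Col17a1, the input level of Col26a1 fell in Trim71KO cells, by 0.75 (SE 0.24, edgeR adjusted p 0.0207) and 1.58 (SE 0.22, edgeR adjusted p 5.44e-06). Col17a1 input values were 0.18 and -0.29 and were not called. The experiment 1 fall of Col26a1 input was not called without tagged replicate 2 (-0.71, edgeR adjusted p 0.0666).

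**Figure D5:**
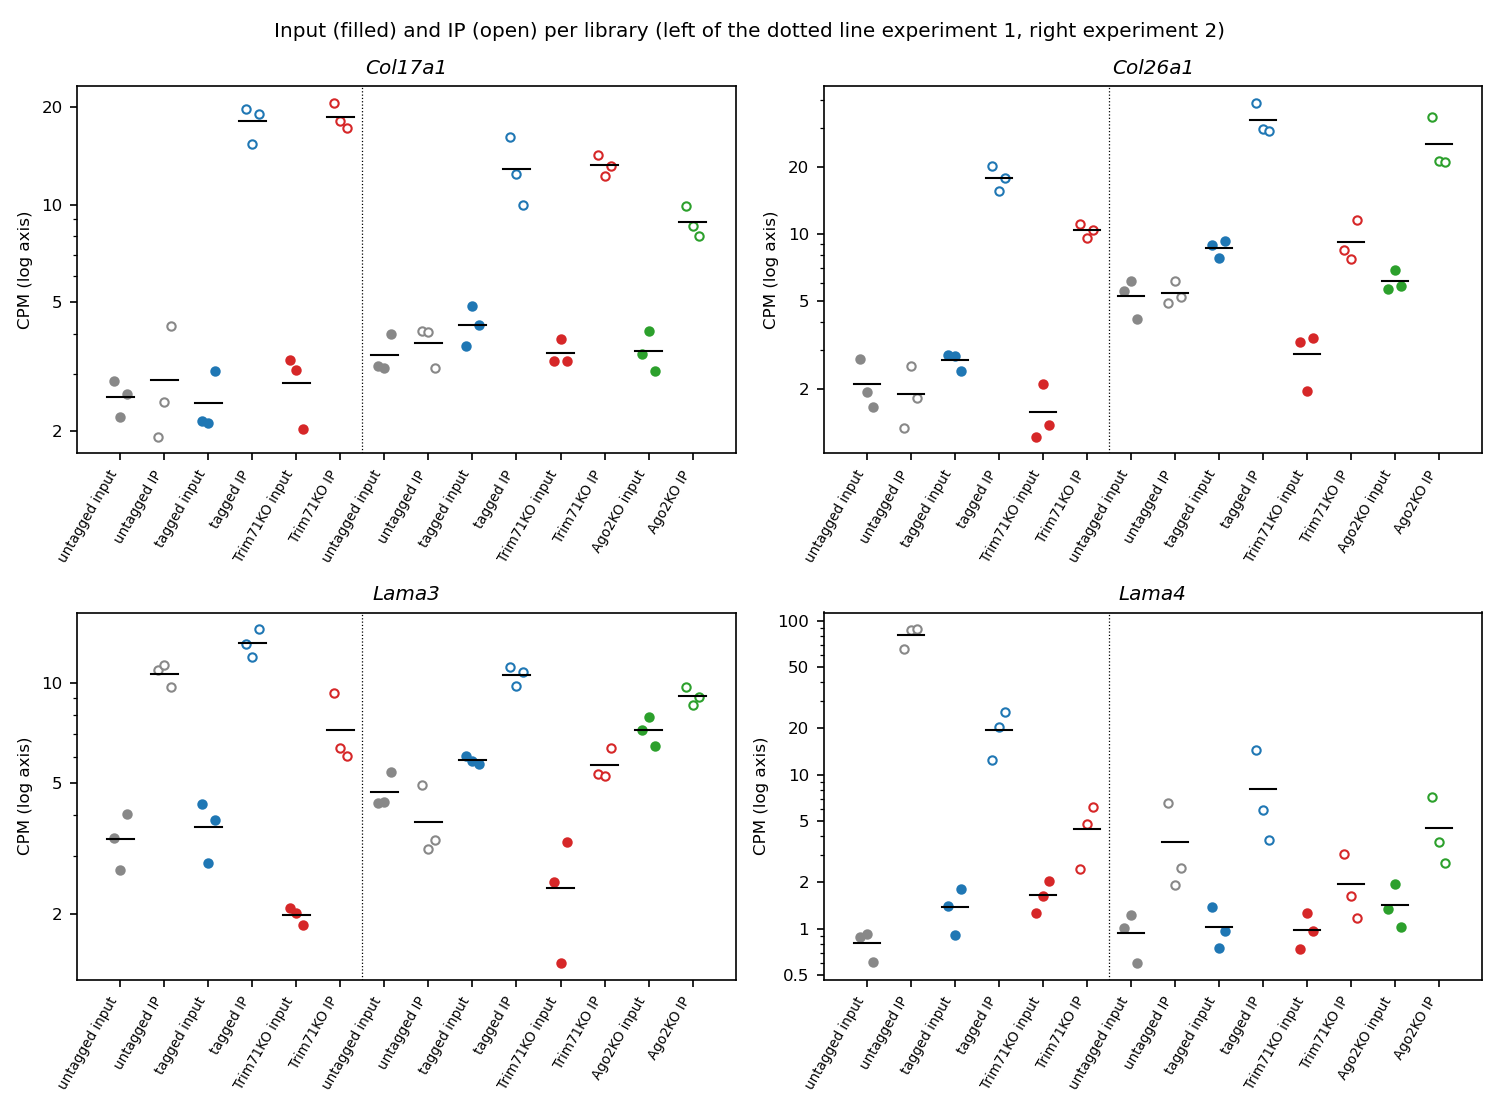
CPM of Col17a1, Col26a1, Lama3 and Lama4 in each input (filled) and IP (open) library by genotype and experiment, log axis. Col17a1 and Col26a1 are higher in IP than in input in tagged lines and not in untagged cells, while Lama4 is highest in untagged IP of experiment 1.

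Among laminins, Lama3 passed in experiment 2 (1.17, SE 0.25, edgeR adjusted p 0.000638). Its log2 IP/input ratio there was -0.31 (SE 0.19) in untagged and 0.86 (SE 0.16) in tagged cells. In experiment 1 those ratios were 1.66 (SE 0.18) and 1.84 (SE 0.18), so its mRNA was on the beads without the tag as well. Lamb2, with tagged input of 26.2, 22 and 24.6 and tagged IP of 9.9, 11.8 and 9.99 CPM in experiment 1, had a tag-specific value of -0.999 (SE 0.19, edgeR adjusted p 0.00011). In experiment 2 its value was -0.61 (SE 0.17, edgeR adjusted p 0.00912).

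All of the laminin-111 chains were called lower in experiment 1. Lamb1 went from 119, 92.4 and 110 CPM in input to 34.5, 39.9 and 37.5 in IP of tagged cells, against 101, 111 and 113 to 70.1, 95.7 and 72.4 in untagged cells. Both IP groups lay below input and the tagged one lower. The tag-specific values were -1.07 for Lamb1 (SE 0.18, edgeR adjusted p 2.32e-05), -1.05 for Lama1 (SE 0.24, edgeR adjusted p 0.000584) and -0.56 for Lamc1 (SE 0.23, edgeR adjusted p 0.0466). The Lamc1 call was lost under 5 of the other settings and on leaving out 9 of the 12 libraries singly, among them RLE size factors (-0.53, edgeR adjusted p 0.0544). In experiment 2 they were -0.54 (SE 0.21, edgeR adjusted p 0.0549), -0.16 and -0.36 (SE 0.21, edgeR adjusted p 0.222), and 0 of the 3 was called. The Lamb1 value passed with RLE size factors (-0.57, edgeR adjusted p 0.0385) and with DESeq2 (-0.57, adjusted p 0.0279). Collagen IV mRNAs followed the same order, with Col4a1 at -0.55 (SE 0.18, edgeR adjusted p 0.0117) and Col4a2 at -0.71 (SE 0.18, edgeR adjusted p 0.00207) in experiment 1 and -0.24 and -0.30, not called, in experiment 2. Among the other falls of experiment 1 were those of Col18a1 (-0.999), Col9a2 (-0.82), Lamb3 (-1.04), Lama4, Col6a5 (-0.76), Col9a3 (-0.94) and Col16a1 (-1.67), and those of Col6a5, Col9a3 and Col16a1 were lost without tagged input replicate 2. The Lamb3 call was lost with the block by culture (edgeR adjusted p 0.0520), with only the groups compared (-0.97, edgeR adjusted p 0.0626) and in 4 of 12 leave-one-out refits, and that of Col4a1 without tagged input replicate 1 (-0.43, edgeR adjusted p 0.0554). Col22a1 was the other gene called lower in experiment 2 (-1.25, SE 0.36, edgeR adjusted p 0.0105).

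Lama4, the alpha chain of laminins of vessels and muscle, at chr10:38965515-39110188, is the gene whose enrichment was called as Trim71-dependent below. In experiment 1 its input was 0.887, 0.924 and 0.614 CPM in untagged, 1.42, 0.918 and 1.83 in tagged and 1.28, 1.63 and 2.04 in Trim71KO cells. Its IP was 65.4, 87 and 88.1 CPM in untagged, 12.4, 20.4 and 25.7 in tagged and 2.44, 4.8 and 6.16 in Trim71KO cells. The 3 IP groups did not overlap, and the highest was that of cells without a tag. IP stood 97.5-fold over input in untagged, 13.9-fold in tagged and 2.69-fold in Trim71KO cells. The tag-specific value was -2.81 (SE 0.48, edgeR adjusted p 2.56e-05). In experiment 2, IP was 6.6, 1.94 and 2.5 CPM in untagged, 14.5, 5.95 and 3.79 in tagged, 3.05, 1.64 and 1.18 in Trim71KO and 7.12, 3.67 and 2.68 in Ago2KO cells. Tagged and Trim71KO libraries did not overlap there, both overlapped those of untagged cells, replicate 1 was highest in each group, and the tag-specific value was 0.99 (SE 0.78, edgeR adjusted p 0.377). The experiments differed by -3.70 (SE 1.03, edgeR adjusted p 0.00657). The input level rested on few counts and was not called changed in any genotype.

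Trim71-dependent enrichment sets the IP to input ratio of Trim71KO cells against that of tagged cells. In experiment 1 only Lama4 of 35 genes was called (-2.37, SE 0.46, edgeR adjusted p 0.00223), where 3.74% of genes were called, and 5 genes had an unadjusted p under 0.05. Over all genes, leaving out Trim71KO input replicate 3 took the 703 calls to 339, while omitting IP replicate 1 of Trim71KO took them to 1435. Rises made up 7.25% of all calls, and 24.6% with library size alone. The median was -0.24 against -0.04 over all genes. Without tagged input replicate 2 the Lama4 value was -2.09 (edgeR adjusted p 0.0138). The beads held Lama4 mRNA without the tag (97.5-fold IP over input in untagged cells of experiment 1). Association with Tnrc6a and RNA held without the tag cannot be told apart in this value. Bcar1 RNA, also on the beads without the tag, had the same order in IP of experiment 1. It took 9.64% to 12.1% of counts in untagged, 2.01% to 2.73% in tagged and 0.429% to 1.03% in Trim71KO IP. In IP of experiment 2 Bcar1 took 0.613% to 2.76%, 1.09% to 2.12% and 0.374% to 0.745%. Untagged and tagged libraries overlapped there. Whether bead background gave the Lama4 change was not tested. In experiment 2, 0 of 38 genes were called with edgeR and 0 with DESeq2, 2 had an unadjusted p under 0.05, and 1.49% of genes were called, 50.5% of them higher (75.7% with library size alone). Omitting IP replicate 2 of Trim71KO took those 295 to 98, while omitting IP replicate 1 of tagged cells took them to 562. Lama4 stood at -1.98 (SE 0.80, edgeR adjusted p 0.222), and with the replicate block by number at -1.90 (edgeR adjusted p 0.00976). The block ties these paired dishes and also the untagged and Ago2KO ones, which did not meet the pairing rule. Of the mRNAs recovered with the tag, Col17a1 had -0.14 (SE 0.30) and 0.33 (SE 0.23) and Col26a1 -0.04 and -0.22 in experiments 1 and 2, and neither was called. Col17a1 IP was 20.6, 18 and 17.2 CPM in Trim71KO and 19.7, 15.4 and 19 in tagged cells of experiment 1, overlapping groups. The difference between the experiments in this value was called for 0 of 35 genes with edgeR and 0 with DESeq2 (2 at an unadjusted p under 0.05), where 0.0967% of genes were called. Those 18 genes became 6 without tagged input replicate 1 of experiment 2 and 1167 without Trim71KO IP replicate 1 of experiment 1.

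Ago2-dependent enrichment, measured in experiment 2, gave 0 of 38 calls with edgeR and 0 with DESeq2, with 1 gene at an unadjusted p under 0.05, where 4.16% of genes were called (9.25% of them higher, and 26.1% with library size alone). Col17a1 IP was 9.93, 8.57 and 7.99 CPM in Ago2KO and 16.2, 12.4 and 9.96 in tagged cells, the former all the lower. With input at 3.45, 4.07 and 3.07 against 3.65, 4.86 and 4.26, the value was -0.27 (SE 0.23, edgeR adjusted p 0.711). Col26a1 stood at 0.14. Lama3 was at -0.52 (SE 0.23, edgeR adjusted p 0.296) and Lama4 at -1.30 (SE 0.72, edgeR adjusted p 0.466). The IP to input ratio of Trim71KO against that of Ago2KO cells differed in 1 of 38 genes, where 11.8% of genes were called. That gene was Lama3, higher in Trim71KO (0.88, SE 0.25, edgeR adjusted p 0.0215), a call that 4 of 12 leave-one-out refits did not keep. Its IP was 5.31, 5.24 and 6.37 CPM in Trim71KO and 9.71, 8.57 and 9.08 in Ago2KO cells, so the ratio was the higher where the IP level was the lower, with input at 2.51, 1.42 and 3.3 against 7.24, 7.88 and 6.47.

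Genes that work with collagens and laminins were counted from lists of basement membrane partners, of collagen synthesis and processing, and of receptors, with 15, 34 and 15 genes, of which those in the tables are counted. In Trim71KO input of experiment 1, 8 of 14 basement membrane partners rose and 0 fell, beside 16.5% and 17.4% of all genes. They included Nid1, the nidogen that links laminin to collagen IV (1.21, SE 0.17, edgeR adjusted p 6.79e-06), and Frem1 (1.57, SE 0.35) and Fras1 (1.20, SE 0.36) of the Fraser complex. Nid1 rose in the same libraries in which Col4a2 and Lamb1 fell. In experiment 2 (13.5% and 13.7% of all genes), 4 partners rose, among them Nid1 (0.68, SE 0.16, edgeR adjusted p 0.00218) and Frem1 (1.66, SE 0.29), and Frem2 (-0.86, SE 0.23) and Smoc1 (-0.79, SE 0.11) fell. In Ago2KO input 0 of 14 passed with edgeR or DESeq2, and 1 had an unadjusted p under 0.05.

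Of genes for collagen synthesis and processing, 12 of 29 were called in Trim71KO input of experiment 1, 10 higher and 2 lower. In experiment 2, 7 of 29 were called, 5 higher and 2 lower. Calls in all were near the shares over all genes (34% and 27.2%), but they leaned higher. Over all genes 16.5% rose and 17.4% fell in experiment 1, and 13.5% rose and 13.7% fell in experiment 2. Pcolce2, which aids removal of the procollagen C-terminal propeptide, rose by 1.16 (SE 0.13, edgeR adjusted p 6.81e-07) and 1.67 (SE 0.12, edgeR adjusted p 1.14e-10). P4ha2, a prolyl hydroxylase subunit, fell by 0.86 and 0.94. Serpinh1, the collagen chaperone, fell by 0.57 in experiment 1, and Bmp1, the procollagen C-proteinase, fell by 1.25 in experiment 2. Of receptors, 5 of 10 rose in experiment 1 and 3 of 11 in experiment 2 (16.5% and 13.5% of all genes), among them Ddr2, a collagen receptor kinase (0.90 and 0.99). In Ago2KO input 1 of 29 synthesis genes was called, Pcolce (0.19), and 0 of 11 receptors with edgeR or DESeq2 (2 at an unadjusted p under 0.05).

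In the IP, calls in these lists are read beside those over all genes, 56.9% in experiment 1 and 27.7% in experiment 2. Of the synthesis list, 19 of 29 were called in tag-specific enrichment of experiment 1, 4 higher and 15 lower. In experiment 2, 7 of 29 were called, 1 higher and 6 lower. Calls in all were near the shares of all genes, but they leaned lower. Over all genes 28.1% were up and 28.8% down in experiment 1, and 18.9% up and 8.77% down in experiment 2. Creb3l2, a transcription factor of secretory cells, was recovered with the tag in both (2.48, SE 0.20, and 1.97, SE 0.15, edgeR adjusted p 6.48e-11 for the latter), and it was the single gene of these lists called in Ago2-dependent enrichment (-0.57, SE 0.15, edgeR adjusted p 0.0218). P4hb, a prolyl hydroxylase subunit, was lower in both (-1.24 and -0.56). Of receptors, 6 of 10 and 3 of 11 were called, with Bcam, a receptor of Lama5 laminins, lower in both (-0.68 and -0.39). Of basement membrane partners, 8 and 2 of 14 were called. Nid1 (-1.06) and Nid2 (-1.07) were lower in experiment 1, and Ntn4, a laminin-binding netrin, was higher in both, by 3.37 (SE 0.69) in experiment 2. Ntn4 had 0 counts in untagged IP of experiment 1, so no fold is given there.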

How the data were processed

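RNA of inputs and anti-HA IPs was sequenced in 42 libraries of mouse embryonic stem cells, grouped by their titles and descriptions. The authors deposited raw read counts per gene and, beside them, RPKM values, which were not used. The submitters' processing notes name bcl2fastq 2.20, STAR 2.7.3a and the GRCm38/mm10 build, and the heading of the gene lengths names QuasR, per the file headers. The library kit kept strand, per the labels' protocols. How overlapping genes were counted is not given in the sources used here, so Col4a1 and Col4a2, whose gene spans overlap by 84 bases, could exchange a few reads. The Col4a1 span reaches beyond the start used for its window. Rows with no symbol (3194 and 3572) stayed in the fit.

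Differential tests ran on the deposited counts in edgeR 4.0.16 (R 4.3.3, TMM, filterByExpr, quasi-likelihood F test, a mean for each group), with all groups of an experiment in 1 fit and both experiments in 1 fit for differences between them. Calls needed p under 0.05 after Benjamini-Hochberg correction across the table. Enrichment is an interaction, the log2 IP to input ratio of a genotype minus that of its reference. SE is the log2 change over the square root of F. CPM is scaled to TMM library sizes and given as mean ± SD. Alternatives were RLE size factors, library size alone, no filter, DESeq2 1.42.0, only the groups compared, replicate blocks and leaving out each library. The fit was tested on simulated counts. SEs and p-values cover counting error and the spread between dishes, and ignore duplicate molecules. Replicates differed by more than sampling noise in all 42 pairs (chi-square per gene 2.87 to 64.1).

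Replicate numbers were taken to pair samples where deviations from the group means correlated over 0.1 in every pair. They did so between tagged and Trim71KO dishes of experiment 2 (r 0.205 to 0.300 in input, 0.183 to 0.335 in IP), and between tagged input and tagged IP of experiment 2 (0.105 to 0.184), and in no other pair of groups checked. A replicate block by number is printed where it changes a call between paired groups. It was fitted over all genotypes of an experiment, so it also ties untagged and Ago2KO libraries, which did not meet this rule. Ago2KO against tagged dishes fell short of it in replicate 2 alone. For replicates 1 to 3, r was 0.221, 0.000858 and 0.214 in input and 0.576, 0.0627 and 0.416 in IP.

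Every collagen or laminin gene could be named, except that 1 of them, which is in the counts and medians, is not reported here. Library values were given for up to 6 called genes each way with the largest change at a mean log2 CPM of at least 0, and for Lama1, Lamb1, Lamc1, Col4a1, Col4a2 and Lama4, and partner genes for up to 3 each way. Some of these are given by their change alone. The genes and lists were chosen with earlier results of these data known.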

Additional observations from a re-analysis of the deposited data

Results flagged for a closer look

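Differences between the experiments in the same contrast were called for 14 values in the fit of all 42 libraries, given as experiment 1 minus experiment 2 on the log2 scale. For tag-specific enrichment they were Lama4 (-3.70), Col17a1 (1.33) and Col6a4 (1.03), with SEs of 1.03, 0.42 and 0.36 and edgeR adjusted p of 0.00657, 0.0162 and 0.0299. The Col6a4 difference did not pass in a fit of only the compared groups (0.94, edgeR adjusted p 0.0587) or on leaving out 5 of the 24 libraries singly.

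For Trim71KO against tagged input the differences were Col4a5 (1.86), Col6a2 (1.77), Col22a1 (1.61), Col1a1 (1.38), Col2a1 (1.19), Lamb3 (1.11), Col13a1 (0.99), Col5a1 (0.92), Col6a4 (0.84), Col9a2 (0.59) and Lama1 (-0.67). The edgeR adjusted p ran from 0.000369 for Col5a1 to 0.0304 for Lama1. Lama1 was the single gene whose change was the lower in experiment 1. Its difference was lost with library size alone (-0.56, edgeR adjusted p 0.0783) and on leaving out 5 of the 12 libraries singly. That of Col2a1 did not pass in a fit of only the compared groups (1.19, edgeR adjusted p 0.0558) and without tagged input replicate 2 of experiment 1 (1.00, edgeR adjusted p 0.0552). Nor did it pass without Trim71KO input replicate 3 of experiment 1 (edgeR adjusted p 0.175). No group has more than 3 libraries, so single libraries were not tested for standing apart by this means.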

How the results depend on the processing

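Of 97 called values of collagen and laminin genes, 60 kept their call and direction under every alternative run, and 0 reversed. In tag-specific enrichment of experiment 2, library size alone gave 11 called genes and the replicate block by culture 8, against 5. The replicate block by number gave 1 gene, Lama4, in Trim71-dependent and 1 in Ago2-dependent enrichment of experiment 2, against 0. Ago2KO dishes did not meet the pairing rule. For Trim71KO against Ago2KO enrichment it gave 2, as did only the groups compared, against 1. Tagged against untagged input of experiment 2 gave 2 with library size alone, 3 with DESeq2 and 3 with only the groups compared, against 1. For differences between the experiments, DESeq2 gave 5 in tag-specific enrichment, against 3, and library size alone, DESeq2 and only the groups compared each gave 1 for tagged against untagged input, against 0. Between tagged and Trim71KO dishes of experiment 2, which the numbers pair, the replicate block over all genotypes changed the calls of Col4a1 (gained), Col11a1 (lost) and Lama4 (gained) and no other. The block by culture, which pairs tagged input and IP but not untagged ones, added Col18a1, Lamb1 and Col9a2 in tag-specific enrichment.

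With each library left out in turn, calls ran from 11 to 15 in tag-specific enrichment, 15 to 20 in Trim71KO input, 0 to 2 in tagged against untagged input and stayed at 1 in Trim71-dependent enrichment of experiment 1. In experiment 2 they ran from 5 to 9 in tag-specific enrichment (9 without tagged IP replicate 3), 11 to 15 in Trim71KO input (11 without Trim71KO input replicate 1), 5 to 6 in Ago2KO input, 11 to 13 in Trim71KO against Ago2KO input, 0 to 2 in Trim71KO against Ago2KO enrichment, 0 to 1 in tagged against untagged input, and stayed at 0 in Trim71- and Ago2-dependent enrichment. For differences between the experiments they ran from 2 to 5 in tag-specific enrichment, 9 to 11 in Trim71KO input and 0 to 3 in tagged against untagged input, and stayed at 0 in Trim71-dependent enrichment. The causes of these moves were not tested. Fewer samples enter each such fit. Genes near 1 CPM, such as Col4a5, Col8a2 and Lama4 in input, rest on few counts, and 37 of the calls were lost in at least 1 alternative.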
